A study of Fagopyrum tataricum with 9 samples.

Results

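AP2 and ERF transcription factor genes were followed through 3 stages of seed development in Tartary buckwheat, Fagopyrum tataricum. A gene was a member when the protein name of its best Swiss-Prot match in the deposited gene descriptions held "ethylene-responsive transcription factor" or "dehydration-responsive element-binding", in any letter case. This rule used names and no expression values. It found 148 members among 31839 gene models, of which 23451 had a Swiss-Prot match. The best match of 141 members was an Arabidopsis thaliana protein, so a name such as ERF098 or DREB2A below is that of the nearest Arabidopsis protein and not a name given in buckwheat. Roles are likewise those known from Arabidopsis unless another plant is named.

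Proteins of this family bind DNA through the AP2 domain. ERF proteins are best known for binding GCC-box promoters in responses to ethylene, jasmonate and pathogens, and DREB proteins for binding dehydration-responsive elements under cold, drought and heat. Members with a pair of AP2 domains, such as the AINTEGUMENTA-like and PLETHORA proteins, act mainly in embryos, meristems and floral organs, and WRI1 directs oil synthesis in seeds. In seeds, abscisic acid governs the late programme of storage, drying and dormancy, and several family members act in that hormone's response.

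The seeds came from field-grown plants of the cultivar MIQIAO 1, an easily dehulled type, and RNA was sequenced at the green fruit, discoloration and initial maturity stages. Each stage had 3 libraries, taken per the labels from 3 plants. All groups share the cultivar and the field, none was treated, and no other genotype was compared. The sampling text gives 13, 19 and 25 days post anthesis, but no label ties a day to a stage name. Whole seeds were used, so fewer cells of a type and less RNA per cell cannot be told apart.

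The libraries held 21585045 to 26777643 counts. In each stage a pair of libraries was closely similar and the other library stood apart: green fruit library 1, discoloration library 1 and initial maturity library 2. The chi-square per degree of freedom over genes was 1.99 to 3.58 within the close pairs and 43.5 to 277 between each of these libraries and its stage mates. Whether the libraries of a close pair come from separate plants, as the labels state, cannot be told from the files; if they do not, each stage has 2 independent libraries, and the SEs and p-values below, which count 3, are too small. Results are therefore also given with each close pair added together as 1 library, which leaves 2 libraries a stage, and with the 3 libraries that stood apart left out. Every member's call between adjacent stages that did not pass on leaving out 1 library also did not pass with the close pairs joined, so for those only the left-out libraries are named below. Storage protein markers (18 genes) held 19585 to 69524 CPM (counts scaled to a common library size) at green fruit, the highest in library 1, 315429 to 355003 at discoloration and 295840.1 to 430897 at initial maturity. The 21 green tissue markers held 1663 to 3890.0 CPM at green fruit, the lowest in library 1, then 608 to 865 and 58.5 to 70.1.

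Of the 148 members, 99 passed the filter on low counts and were tested; 49 did not pass, and in 15 members no library held a count. The highest total over the 9 libraries among the members that did not pass was 62 counts, for ERF113 (FtPinG0001787700.01). A member is called higher or lower where edgeR's quasi-likelihood test, adjusted by Benjamini-Hochberg over the 23631 genes tested, gave p under 0.05. At discoloration against green fruit, 39 members were higher and 23 lower, beside 19.5% higher and 19.9% lower among all genes tested. The members' shares were 39.4% and 23.2%. At initial maturity against discoloration, 26 were higher and 25 lower (26.3% and 25.3%), beside 16% and 20.4% of all genes. Over the whole series, at initial maturity against green fruit, 38 were higher and 40 lower, beside 28.3% and 32.5%. The median log2 fold change of the tested members was 0.23, 0.13 and 0.07 in these comparisons, and that of all genes tested was -0.04, -0.02 and -0.06.

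The split between higher and lower calls depended on the scaling, which otherwise is by edgeR's TMM factors (0.635 to 1.833). With library totals alone, the median of all genes shifted to -1.03 for discoloration against green fruit and to -0.37 for initial maturity against discoloration. Of the members called at discoloration against green fruit, 62.9% were higher with TMM and 32.4% with library totals (23 higher and 48 lower). Of all genes called in that comparison, 49.5% were higher with TMM and 10.2% with library totals, and library totals called 23.2% of the tested members higher and 48.5% lower, beside 7.74% and 68.3% of all genes tested. At initial maturity against discoloration the members' shares were 51% and 39.6% (all genes 43.9% and 20.8%), and at initial maturity against green fruit 48.7% and 32.1% (all genes 46.6% and 10.7%). Directions below are relative to the TMM scaling, and a direction that library totals turn is named with it.

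**Figure D1:**
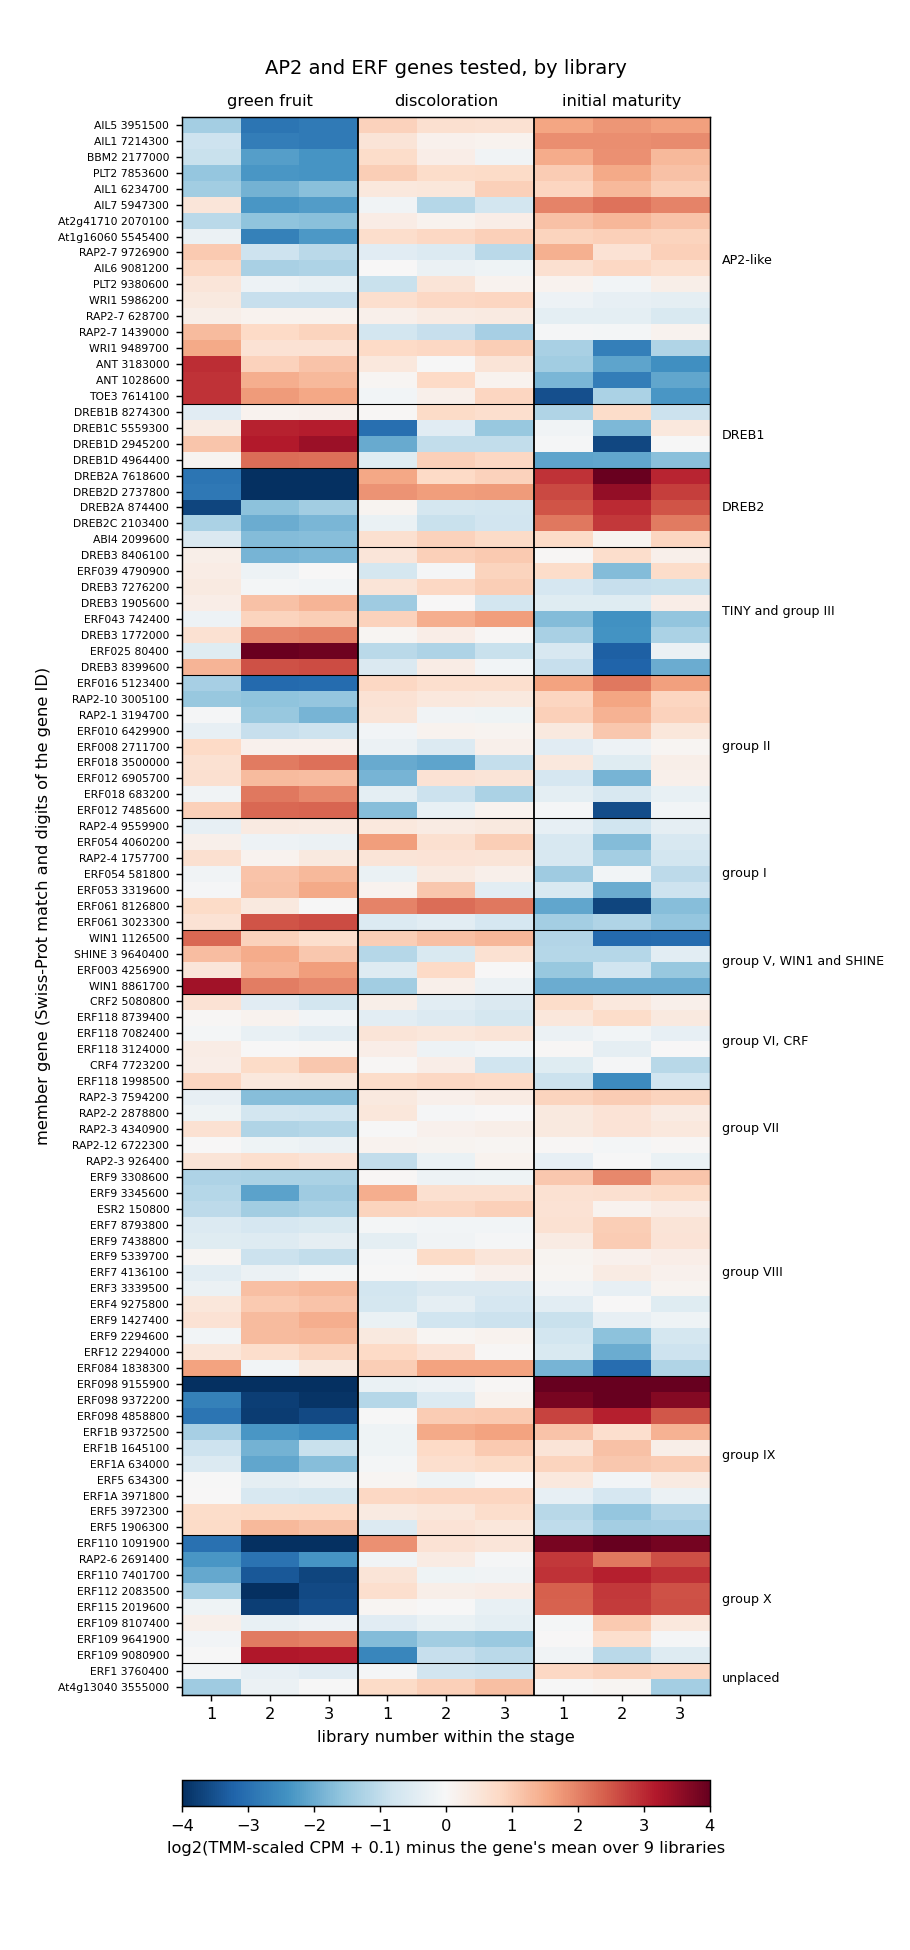
Heat map of the 99 tested members (rows, by subgroup and, within one, by change over the series) in the 9 libraries (columns, by stage), as log2(TMM-scaled CPM + 0.1) minus the gene's mean. The DREB2 rows other than ABI4 and most group X rows are lowest at green fruit and highest at initial maturity. The ABI4 row is lowest at green fruit, with overlapping values at the later stages. The DREB1D and DREB1C rows called lower, ERF025 and 2 of the ERF109 rows are highest in green fruit libraries 2 and 3.

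Taken over both intervals, 16 members were higher at discoloration and higher again at initial maturity, and 6 were lower and lower again (16.2% and 6.06% of the tested members, beside 4.96% and 6.13% of all genes tested). Another 6 were higher at discoloration and then lower, and 4 were lower and then higher (6.06% and 4.04%, beside 3.09% and 2.45%). The mean level was highest at initial maturity for 42 tested members, at green fruit for 36 and at discoloration for 21 (42.4%, 36.4% and 21.2%, beside 38.1%, 40.9% and 20.9% of all genes tested). The F test over the 3 stages called 83 of the 99, beside 65.4% of all genes tested. The log2 change over the second interval was above that over the first in 9 members and below it in 25, beside 6.58% and 13.4%. The number of members above a low level was smaller at each later stage. A mean deposited FPKM of at least 1 was reached by 90, 80 and 71 of the 148 members over the stages in order of development (60.8%, 54.1% and 48.0%), beside 65.2%, 58.2% and 53.0% of all gene models. The members' values in the libraries that stood apart were also compared with those of their stage mates. In green fruit library 1, 36 of the 39 members called higher at discoloration were above both other green fruit libraries, and 17 of the 23 called lower were below both. In discoloration library 1, the same 39 members were divided, with 20 above both other discoloration libraries and 17 below both, and of the 23 called lower 4 were above and 14 below. Of the members called at initial maturity against discoloration, 18 of the 26 higher ones were above both others in that library and 18 of the 25 lower ones below both. In initial maturity library 2, 21 of the 26 members called higher at initial maturity were above both others of that stage, and 17 of the 25 called lower were below both. These libraries are part of the values that made the calls, so the counts are a description. They were not made over all genes called, so whether the members differ here from the whole library cannot be told.

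Several features were shared that the names did not use. The member models were short, 220 to 2429 bases with a median of 685.5, against a median of 1081.0 for all models. In 88 of the 148 (59.5%) the model's length equalled its span on the chromosome, so that the model has no intron, against 24.7% of all models. Within 50000 bases of another member lay 39 members, in 18 clusters. Of these 39, 9 overlap another member, and no such count was made for all gene models.

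**Figure D2:**
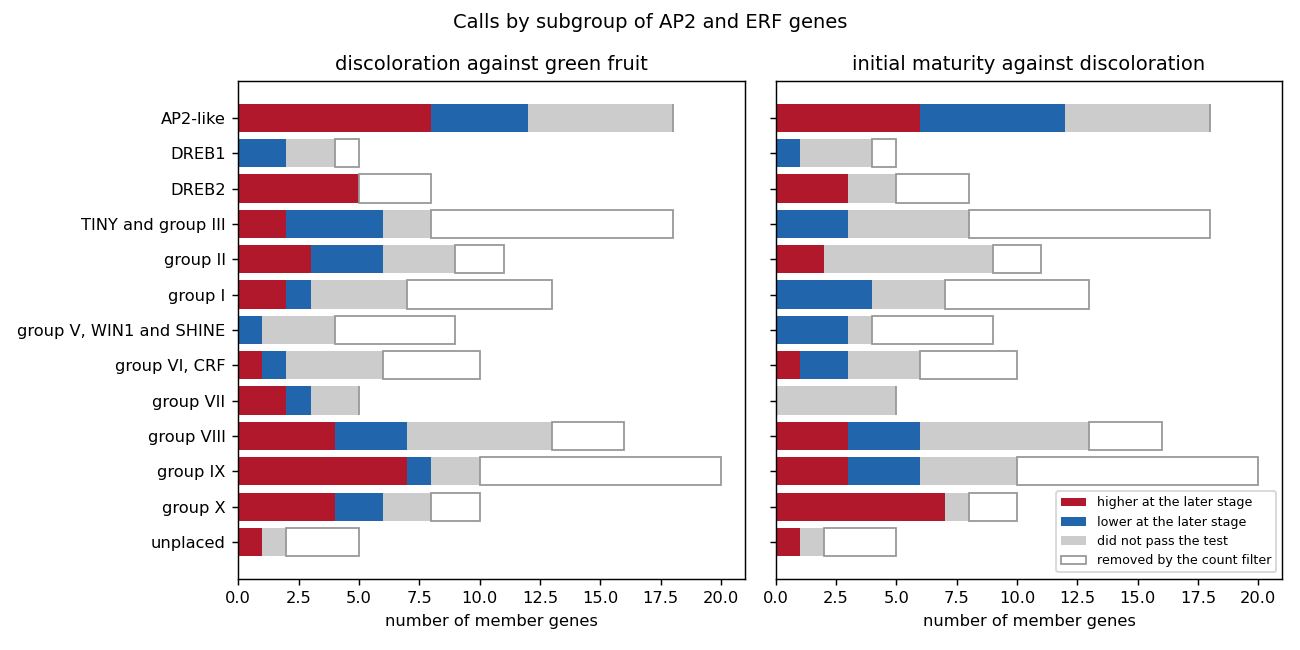
Number of members (x axis) in each subgroup (y axis) called higher or lower at the later stage, not passing the test, or removed by the count filter, for discoloration against green fruit (left) and initial maturity against discoloration (right). The 5 tested DREB2 members were all higher at discoloration, and 7 of 8 tested group X members were higher at initial maturity. Of these group X calls, only those of ERF110 FtPinG0007401700.01 and RAP2-6 FtPinG0002691400.01 held in every alternative run. Among all genes tested, 19.5% were higher at discoloration and 16% at initial maturity.

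The counts by subgroup, marker list and context list below stand beside the shares of all genes tested. These were 19.5% higher and 19.9% lower at discoloration, and 16% and 20.4% at initial maturity against discoloration. Where a subgroup or marker list had 0 members called in a direction by edgeR's quasi-likelihood test, 0 passed an unadjusted p under 0.05 in edgeR and 0 were called by DESeq2's test. The exceptions, all at initial maturity against discoloration, were the unplaced members (lower), the pollen and flower markers (lower) and the storage markers (higher), each with 1 gene by both counts.

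Group IX holds the ERF1, ERF5 and ERF098 types, known for defence and for the ethylene and jasmonate response, and 10 of its 20 members were tested. At discoloration 7 were higher and 1 lower; at initial maturity 3 were higher and 3 lower. The 3 that rose in both intervals were the tested ERF098 matches, and ERF098 is a short protein of this group. ERF098 FtPinG0009155900.01 (chromosome 7, 47441270 to 47441668) had no count in any of the 3 green fruit libraries, 1.89, 1.95 and 2.38 CPM at discoloration, and 52.5, 92.3 and 50.4 CPM at initial maturity. No values of these stages overlapped, and initial maturity library 2 was the highest. It was at least 86.2-fold higher at discoloration than at green fruit, with green fruit set at 3 counts over the stage, and at least 2702-fold higher at initial maturity. Between discoloration and initial maturity its log2 fold change was 4.97 ± 0.31 (SE, n = 3 each; edgeR adjusted p = 1.8e-04).

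The second tested match, ERF098 FtPinG0009372200.01 (chromosome 1, 48306622 to 48307047), had 0.193, 0.0408 and 0.0255 CPM at green fruit, 0.765, 1.2 and 2.01 at discoloration, and 26.2, 41.3 and 24 at initial maturity. Its first rise was log2 3.95 ± 0.61 (SE; edgeR adjusted p = 0.00124) and its second 4.51 ± 0.45 (SE; edgeR adjusted p = 3.0e-04). ERF098 FtPinG0004858800.01 (chromosome 3, 12016907 to 12017308) had 0.303, 0.122 and 0.153 CPM, then 2.91, 6.08 and 6.21, then 19.8, 26.3 and 17.1. Its rise was larger over the first interval (log2 4.72 ± 0.43) than over the second (2.05 ± 0.33; difference -2.67, edgeR adjusted p = 0.016). For FtPinG0009372200.01 the difference between the intervals was 0.56 (edgeR adjusted p = 0.762). In all 3 genes the stages did not overlap, and their calls in both intervals held under every alternative run, the joined pairs and each left-out library included. The other 3 ERF098 matches were not tested, with totals of 17, 1 and 4 counts over the 9 libraries (FtPinG0000415700.01, FtPinG0001644600.01 and FtPinG0004775700.01).

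The ERF1 and ERF5 types of group IX, which activate pathogen-response promoters, took other courses. ERF1B FtPinG0009372500.01 lies 38322 bases, outer end to outer end, from the ERF098 gene on chromosome 1, on the other strand. It had 1.17, 4 and 4.2 CPM at discoloration against 0.468, 0.184 and 0.153 at green fruit (log2 3.55 ± 0.59, edgeR adjusted p = 0.00178), and 3.06, 2.15 and 3.61 CPM at initial maturity, overlapping discoloration. ERF1A FtPinG0003971800.01 (chromosome 3, 4872299 to 4873199) had 28.3, 17.7 and 17.1 CPM at green fruit, 50.0, 50.3 and 51.1 at discoloration, and 22.3, 17.4 and 23.7 at initial maturity. It rose by log2 1.26 ± 0.21 (edgeR adjusted p = 0.00187) and then fell by 1.26 ± 0.21 (edgeR adjusted p = 0.00249). The rise did not pass with library totals (0.30, edgeR adjusted p = 0.169). ERF5 FtPinG0003972300.01, 21208 bases away between outer ends, had 20.5, 22.3 and 26.3 CPM at discoloration and fell to 7.39, 5.43 and 7.15 at initial maturity (log2 -1.79 ± 0.17, edgeR adjusted p = 2.3e-04). The most abundant group IX member, ERF5 FtPinG0000634300.01, stayed between 24.4 and 41.2 CPM in all libraries and passed in neither interval. Its change at discoloration was 0.18 (edgeR adjusted p = 0.455) with TMM and -0.80 (edgeR adjusted p = 0.00354) with library totals. With the close pairs joined, the calls of ERF1B (edgeR adjusted p = 0.0517) and of both changes of ERF1A (0.0592 and 0.0555, edgeR adjusted p) did not pass.

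Group X holds factors of abscisic acid, wound and stress responses. Of its 10 members 8 were tested. At discoloration 4 were higher and 2 lower (50.0% and 25.0%, beside 19.5% and 19.9% of all genes tested). At initial maturity 7 were higher and 0 lower (87.5% higher, beside 16%). Of these later rises, only those of ERF110 FtPinG0007401700.01 and RAP2-6 FtPinG0002691400.01 held under every alternative. ERF110 FtPinG0001091900.01 (chromosome 3, 44807483 to 44808222), whose Arabidopsis match acts in ethylene-regulated flowering, had 2.12, 0.143 and 0.153 CPM at green fruit, 63.4, 26.3 and 24.7 at discoloration, and 246, 489.5 and 249.5 at initial maturity. Green fruit library 1, discoloration library 1 and initial maturity library 2 were each the highest of their stage. It rose by log2 5.60 ± 0.99 (SE; edgeR adjusted p = 0.00232) and then by 3.11 ± 0.85 (SE; edgeR adjusted p = 0.0198). The second rise did not pass without discoloration library 2, discoloration library 3 or initial maturity library 2 (edgeR adjusted p = 0.0843, 0.0847 and 0.0561), nor with the close pairs joined (0.119). ERF110 FtPinG0007401700.01 (chromosome 5, 30219703 to 30221112) had 2.31, 0.857 and 0.689 CPM, then 14.1, 8.75 and 8.97, then 73.6, 86.7 and 75.6. Its rises of log2 3.05 ± 0.42 and 2.89 ± 0.40 (edgeR adjusted p = 6.7e-04 and 9.5e-04) held under every alternative.

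RAP2-6, an abscisic acid and salt response factor, followed at a lower level. RAP2-6 FtPinG0002691400.01 had 0.055, 0 and 0.051 CPM at green fruit, 0.612, 0.888 and 0.654 at discoloration and 5.41, 3.29 and 4.51 at initial maturity; its rises of log2 4.27 ± 0.62 and 2.60 ± 0.45 (edgeR adjusted p = 8.9e-04 and 0.00268) held under every alternative. ERF112 FtPinG0002083500.01 reached 255, 340.2 and 279 CPM at initial maturity, against 77.4, 56.1 and 59.1 at discoloration (log2 2.18 ± 0.61, edgeR adjusted p = 0.0218). That call did not pass when discoloration library 1, 2 or 3 or initial maturity library 2 was left out (edgeR adjusted p = 0.0509, 0.0815, 0.0796 and 0.0599). ERF115, which in Arabidopsis promotes stem cell division after wounding, had 21.1, 28.9 and 24.5 CPM at initial maturity, against 4.29, 4 and 3.32 at discoloration, in FtPinG0002019600.01. Its log2 change of 2.68 ± 0.83 (edgeR adjusted p = 0.0315) did not pass without any 1 of the discoloration or initial maturity libraries (edgeR adjusted p = 0.0607 to 0.107). All 3 stages were apart in the ERF110, RAP2-6 and ERF112 genes, whereas green fruit library 1 of ERF115, at 3.63 CPM, lay within the discoloration range.

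**Figure D3:**
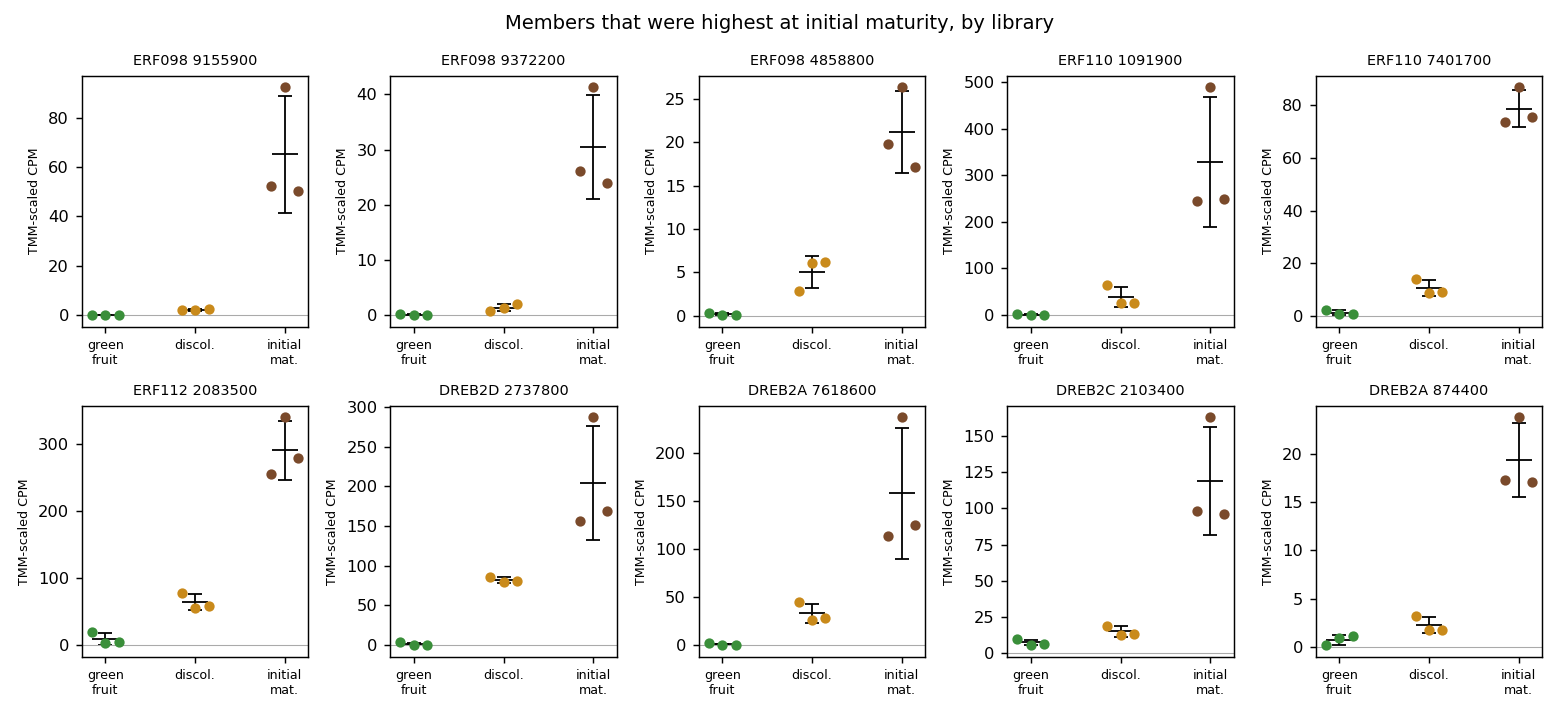
TMM-scaled CPM (y axis, from 0) of 10 members by stage (x axis); each point is a library, in the order 1, 2, 3, and the bar is the mean ± SD of the 3 libraries. In all 10 genes the 3 initial maturity libraries lie above every other library, and initial maturity library 2 is the highest, for example 489.5 CPM for the more abundant ERF110 match.

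Matches of ERF109, known from Arabidopsis as an early redox- and jasmonate-responsive gene, also belong to group X; of the 3 tested, 2 fell over the first interval and FtPinG0008107400.01 did not pass there (log2 -0.29, edgeR adjusted p = 0.455). ERF109 FtPinG0009641900.01 (chromosome 4, 48992831 to 48993403) had 17.1, 77.5 and 74.6 CPM at green fruit, 5.46, 6.88 and 6.45 at discoloration, and 18.5, 29.6 and 18 at initial maturity. It fell by log2 3.17 ± 0.51 (edgeR adjusted p = 0.00154) under every alternative and then rose by 1.81 ± 0.49 (edgeR adjusted p = 0.0194). The later rise did not pass with library totals (1.44, edgeR adjusted p = 0.0557), or without discoloration library 1, 2 or 3 or initial maturity library 2 (edgeR adjusted p = 0.0632, 0.0579, 0.0634 and 0.0683). ERF109 FtPinG0009080900.01 on chromosome 6 had 0, 0.222 and 0.187 CPM at discoloration, against 0.495, 5.45 and 5.38 at green fruit (log2 -4.71 ± 1.01, edgeR adjusted p = 0.0059; 0.0797 with the close pairs joined). Its initial maturity values of 0.446, 0.19 and 0.322 CPM overlapped those of discoloration.

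DREB2 factors respond to drought, salt and heat, and ABI4, counted with them, is a factor of abscisic acid signalling in seeds. Of the 8 members in this subgroup 5 were tested, and all 5 were higher at discoloration (median log2 2.02) and 3 higher at initial maturity (median 2.25). The deposited FPKM of all 8 members, summed, came to 36.5 ± 13.4 (green fruit), 222 ± 8.31 (discoloration) and 501 ± 133 (initial maturity) (SD, n = 3 each). DREB2D FtPinG0002737800.01 (chromosome 7, 1310799 to 1311341) had 3.36, 0.306 and 0.561 CPM at green fruit, 86.4, 79.1 and 81 at discoloration and 156, 287 and 169 at initial maturity. It rose by log2 5.89 ± 0.81 (edgeR adjusted p = 7.0e-04) over the first interval under every alternative. Over the second its change was 1.31 ± 0.66 (edgeR adjusted p = 0.145), although the stages did not overlap. This second change did pass without green fruit library 1 (edgeR adjusted p = 0.00214). It also passed with only the 2 stages compared and with the libraries that stood apart left out. DREB2A FtPinG0007618600.01 (chromosome 8, 17504184 to 17505019) had 1.93, 0.367 and 0.306 CPM, then 44.8, 26.6 and 28.5, then 114, 237 and 125. Its first rise of log2 5.29 ± 0.69 (edgeR adjusted p = 5.4e-04) held under every alternative. The second, 2.25 ± 0.58 (edgeR adjusted p = 0.0157), did not pass without discoloration library 2 or 3 or initial maturity library 2 (edgeR adjusted p = 0.0698, 0.0686 and 0.0505).

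Another pair of the DREB2 genes was also higher at initial maturity. DREB2C FtPinG0002103400.01 had 98.4, 163 and 96.4 CPM at initial maturity, against 18.9, 12.3 and 13.3 at discoloration (log2 3.01 ± 0.30, edgeR adjusted p = 2.9e-04), which held under every alternative. Its rise at discoloration was 1.05 ± 0.29 (edgeR adjusted p = 0.0168), but 0.08 with library totals (edgeR adjusted p = 0.748), and it did not pass without green fruit library 2 or 3 or discoloration library 1 (edgeR adjusted p = 0.0622, 0.058 and 0.066). DREB2A FtPinG0000874400.01 had 17.3, 23.8 and 17.1 CPM at initial maturity, against 3.21, 1.78 and 1.73 at discoloration (log2 3.11 ± 0.52, edgeR adjusted p = 0.00229; 0.0555 with the close pairs joined). Its earlier rise of 1.66 ± 0.54 (edgeR adjusted p = 0.0354) did not pass with library totals (0.61), nor on leaving out green fruit library 2, 1 of the 3 discoloration libraries, or 1 of initial maturity libraries 1 and 3 (edgeR adjusted p = 0.0534 to 0.126). ABI4 FtPinG0002099600.01 had 11.4, 5.14 and 5.21 CPM, then 26.6, 32.4 and 29.2, then 29, 18.4 and 31. A rise of log2 2.02 ± 0.33 (edgeR adjusted p = 0.00168) held under every alternative, and its later values overlapped those of discoloration.

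All 18 AP2-like members were tested. At discoloration 8 were higher and 4 lower; at initial maturity 6 were higher and 6 lower. The AINTEGUMENTA-like (AIL), BBM and PLT matches, whose Arabidopsis counterparts keep meristems and embryos growing, made up most of the rises at discoloration. At initial maturity the rises were those of AIL1, AIL7 and BBM2 matches and also of At2g41710 and RAP2-7 matches. AIL5 FtPinG0003951500.01 had 25.4, 8.57 and 9.08 CPM at green fruit, 124, 103 and 99.7 at discoloration and 195, 225 and 204 at initial maturity. Its first change, log2 2.92 ± 0.41 (edgeR adjusted p = 7.3e-04), held under every alternative, and the second was 0.94 ± 0.38 (edgeR adjusted p = 0.0804). The second did pass without green fruit library 1 (edgeR adjusted p = 4.5e-04) and in DESeq2's test. It also passed with only the 2 stages compared and with the libraries that stood apart left out. AIL1 FtPinG0007214300.01 had 30.9, 8.08 and 7.71 CPM, then 79.3, 62 and 61.3, then 203, 202 and 206. Its rises of 2.12 ± 0.49 and 1.59 ± 0.48 (edgeR adjusted p = 0.00838 and 0.0291) were less stable: the first did not pass with the close pairs joined (edgeR adjusted p = 0.0884), and the second did not pass when any 1 library of its stages was left out (edgeR adjusted p = 0.0595 to 0.0989). In both genes green fruit library 1 lay above the other green fruit libraries and no stages overlapped. The most abundant AP2-like gene was a PLT2 match with a weak Swiss-Prot match (E = 7.8e-09), FtPinG0007853600.01, with 139, 115 and 118 CPM at discoloration against 23.8, 13.9 and 13.6 at green fruit (log2 2.86 ± 0.27, edgeR adjusted p = 1.1e-04).

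AIL7 FtPinG0005947300.01 had 44.8, 51 and 44.8 CPM at initial maturity, against 10.3, 5.06 and 6.68 at discoloration (log2 2.67 ± 0.71, edgeR adjusted p = 0.0169; 0.0708 without discoloration library 2 and 0.0664 without library 3). Its change at discoloration, log2 0.13, did not pass with all 9 libraries. Without green fruit library 1 it was called higher there (edgeR adjusted p = 8.1e-04), as it was with the libraries that stood apart left out. Matches of ANT, which promotes organ growth, and of TOE3, of the APETALA 2 clade, declined through the series. ANT FtPinG0001028600.01 (a weak match, E = 2.7e-10) had 21.3, 7.73 and 6.94 CPM, then 2.91, 4.84 and 3.08, then 0.701, 0.316 and 0.58. It fell by log2 1.73 ± 0.45 (edgeR adjusted p = 0.0144) and then by 2.76 ± 0.55 (edgeR adjusted p = 0.00517; 0.0509 with the close pairs joined); the first fall did not pass without discoloration library 1 or 3 (edgeR adjusted p = 0.0576 and 0.0586). TOE3 FtPinG0007614100.01 had 8.5, 3.63 and 3.29 CPM, then 0.969, 1.24 and 2.01, then 0, 0.379 and 0.129. Both of its falls, log2 -1.86 ± 0.58 and -3.02 ± 0.78 (edgeR adjusted p = 0.0305 and 0.0157), did not pass when some libraries were left out: discoloration library 1, 2 or 3 for the first (edgeR adjusted p = 0.101, 0.103 and 0.0514), and discoloration library 3 or initial maturity library 3 for the second (0.0564 and 0.0561).

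WRI1, the activator of fatty acid synthesis genes, had a pair of matches with different calls over the first interval. WRI1 FtPinG0005986200.01 (a weak match, E = 1.6e-06) had 49.6, 20.2 and 19.9 CPM at green fruit, 60.2, 67.9 and 69.8 at discoloration, and 33.1, 30.1 and 30.0 at initial maturity. It rose by log2 1.14 ± 0.32 (edgeR adjusted p = 0.0205) and then fell by 1.09 ± 0.33 (edgeR adjusted p = 0.028). The rise did not pass with library totals (0.22, edgeR adjusted p = 0.481) or without green fruit library 2 or 3 or discoloration library 2 or 3 (edgeR adjusted p = 0.0581 to 0.0663), and the fall did not pass without any 1 of the discoloration and initial maturity libraries (edgeR adjusted p = 0.051 to 0.0822). WRI1 FtPinG0009489700.01 had 24.3, 12.7 and 12.7 CPM at green fruit and 14.8, 15.1 and 16.9 at discoloration, overlapping, then 3.38, 1.2 and 3.67 at initial maturity. Its fall at initial maturity, log2 -2.50 ± 0.40 (edgeR adjusted p = 0.00189), held under every alternative. RAP2-7 FtPinG0001439000.01, whose Arabidopsis match represses flowering, had 2.04, 1.78 and 1.31 CPM at discoloration against 8.44, 6.12 and 6.56 at green fruit, and 3.31, 3.29 and 3.8 at initial maturity. It fell by log2 2.04 ± 0.24 (edgeR adjusted p = 3.2e-04) and then rose by 1.02 ± 0.24 (edgeR adjusted p = 0.011; 0.151 with the close pairs joined).

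DREB1 factors, also called CBF, drive mainly the cold response, and the related group III holds TINY, DREB3 and ERF025 types. None of the 4 tested DREB1 members was called higher in either interval by edgeR at adjusted p under 0.05; 2 were lower at discoloration and 1 at initial maturity. DREB1D FtPinG0002945200.01 (chromosome 3, 6150553 to 6151152) had 4.35, 18.4 and 21.8 CPM at green fruit, 0.408, 0.933 and 0.934 at discoloration and 1.91, 0.0632 and 1.93 at initial maturity. DREB1C FtPinG0005559300.01 (chromosome 7, 36191477 to 36192085) had 1.46, 10.3 and 10.7 CPM, then 0.051, 0.799 and 0.327, then 1.02, 0.253 and 1.55. In both, green fruit library 1 was the lowest of its stage but above every discoloration library, and initial maturity overlapped discoloration. They fell by log2 4.27 ± 0.86 and 4.21 ± 0.96 at discoloration (edgeR adjusted p = 0.00431 and 0.00776; 0.0735 and 0.0849 with the close pairs joined). DREB1B FtPinG0008274300.01, the most abundant, passed in neither interval, and its 4.33, 17.1 and 5.54 CPM at initial maturity spanned its range at discoloration.

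Of the 18 group III members outside DREB1, 8 were tested; 2 were higher and 4 lower at discoloration, and 0 were higher and 3 lower at initial maturity. ERF025 FtPinG0000080400.01 had 0.357, 0.311 and 0.42 CPM at discoloration, against 0.578, 14.6 and 14.1 at green fruit. The size of this fall, log2 -4.73 ± 1.14 (edgeR adjusted p = 0.01; 0.119 with the close pairs joined), rests on green fruit libraries 2 and 3. ERF043 FtPinG0000742400.01 had 0.573, 0.316 and 0.644 CPM at initial maturity, against 4.13, 5.95 and 7.05 at discoloration (log2 -3.47 ± 0.44, edgeR adjusted p = 7.1e-04), which held under every alternative. DREB3 FtPinG0007276200.01, the most abundant of these, had 20.4, 15.1 and 14.7 CPM, then 23, 28.6 and 31.6, then 9.87, 8.4 and 8.5. Its first change of log2 0.73 ± 0.18 (edgeR adjusted p = 0.0113) turned to -0.23 with library totals and did not pass without discoloration library 3 (0.63, edgeR adjusted p = 0.0503), and its later fall of -1.64 ± 0.19 (edgeR adjusted p = 4.8e-04) held under every alternative.

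Group II holds small DREB-type proteins, among them repressors of stress genes. Of its 11 members 9 were tested; 3 were higher and 3 lower at discoloration, and 2 higher and 0 lower at initial maturity. ERF016 FtPinG0005123400.01 (chromosome 4, 42701317 to 42701691) had 18.7, 5.32 and 5.44 CPM, then 82.9, 74.4 and 74.8, then 144, 204 and 147, with no overlap between stages. It rose by log2 2.98 ± 0.47 (edgeR adjusted p = 0.00142) under every alternative, and its later change was 1.09 ± 0.44 (edgeR adjusted p = 0.0805). The later change did pass without green fruit library 1 (edgeR adjusted p = 5.2e-04) and in DESeq2's test. It also passed with only the 2 stages compared and with the libraries that stood apart left out. ERF018 FtPinG0003500000.01 did the reverse, with 0.153, 0.133 and 0.42 CPM at discoloration against 1.43, 4.2 and 4.59 at green fruit. Its fall of log2 -3.83 ± 0.61 (edgeR adjusted p = 0.00144) held under every alternative. At initial maturity it had 1.27, 0.632 and 1.09 CPM, a rise of 2.06 ± 0.64 (edgeR adjusted p = 0.0315) that did not pass with library totals (1.72, edgeR adjusted p = 0.0778) or without discoloration library 1 or 2 or initial maturity library 1 or 3 (edgeR adjusted p = 0.0747 to 0.11).

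WIN1 and SHINE proteins of group V switch on cutin and wax synthesis in the epidermis. Of 9 members 4 were tested, none was called higher by edgeR, 1 was lower at discoloration and 3 at initial maturity. WIN1 FtPinG0001126500.01 (chromosome 5, 52790501 to 52791955) had 9.46, 3.61 and 2.99 CPM, then 3.72, 4.35 and 4.81, then 0.764, 0.126 and 0.129. The first stages overlapped, and the fall at initial maturity, log2 -3.64 ± 0.69 (edgeR adjusted p = 0.00401), held under every alternative. WIN1 FtPinG0008861700.01 had 0.051, 0.355 and 0.234 CPM at discoloration, against 3.91, 1.53 and 1.38 at green fruit (log2 -3.35 ± 0.70, edgeR adjusted p = 0.00831; 0.0549 with the close pairs joined). It had no count at initial maturity, at least 3.35-fold lower than discoloration with initial maturity set at 3 counts over the stage. That call (edgeR adjusted p = 0.0446) was lost on leaving out green fruit library 2, 1 of discoloration libraries 2 and 3, or 1 of the 3 initial maturity libraries (edgeR adjusted p = 0.0527 to 0.115). ERF003 FtPinG0004256900.01 was at the threshold (edgeR adjusted p = 0.05) on 0, 0.0632 and 0 CPM at initial maturity, against 0.102, 0.4 and 0.187 at discoloration, and did not pass without green fruit library 2 or 3, discoloration library 2 or 3, or 1 of the initial maturity libraries (edgeR adjusted p = 0.055 to 0.168).

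**Figure D4:**
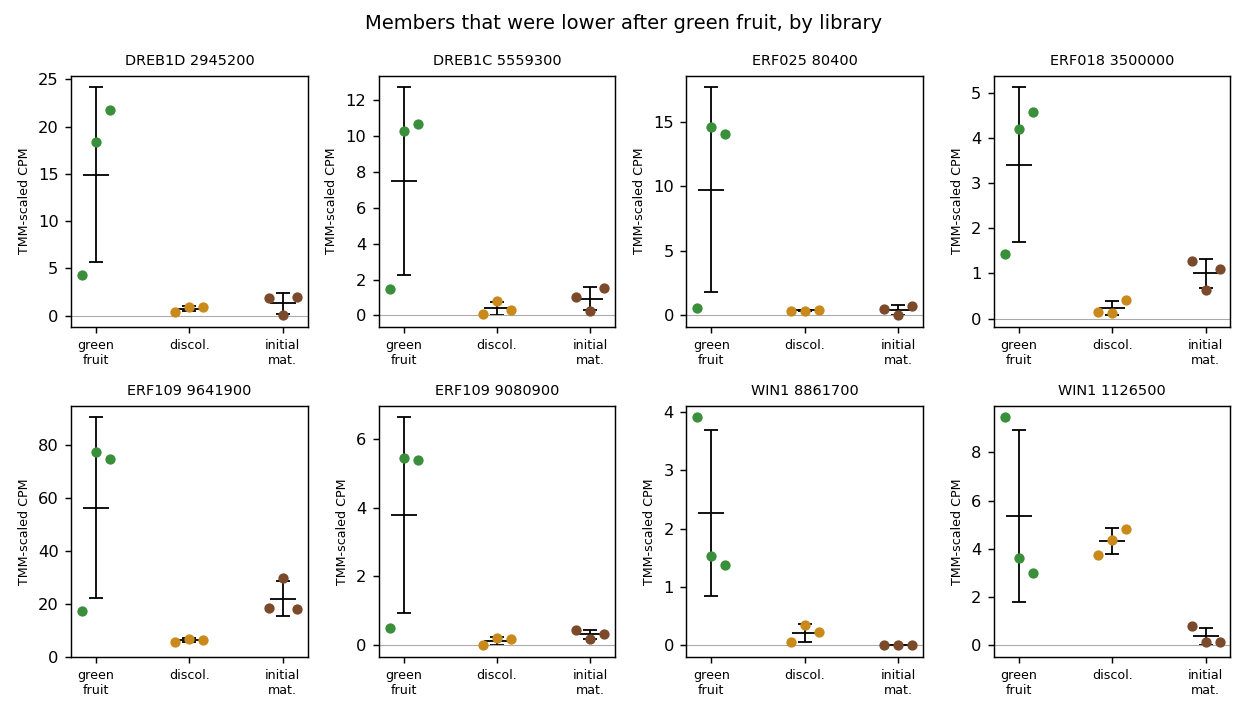
TMM-scaled CPM (y axis, from 0) of 8 members by stage (x axis); each point is a library, in the order 1, 2, 3, and the bar is the mean ± SD of the 3 libraries. In the first 6 genes (the DREB1, ERF025, ERF018 and ERF109 matches) green fruit library 1 lies below libraries 2 and 3, as 17.1 against 77.5 and 74.6 CPM for the more abundant ERF109 match, whereas in both WIN1 matches it lies above them.

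Other measures moved with these falls. The 21 green tissue markers, summed, were lowest of their stage in green fruit library 1 (1663 CPM, against 3679 and 3890.0), 15 of the 21 were lower and 0 higher at discoloration, and 18 lower and 0 higher at initial maturity. The 16 vascular and wall markers summed to 34.9 to 44.6 CPM at discoloration against 118, 786 and 813 at green fruit, the lowest again in library 1. Of the 12 tested, 7 were lower and 0 higher. The 15 pollen and flower markers summed to 185 to 205 CPM at discoloration against 284, 371 and 380.4 at green fruit, and 3 of 7 tested were lower. Of the 18 storage markers 16 were higher at discoloration and 0 lower, beside the rises of the DREB2, ERF110 and AIL5 matches over the same interval. Their part in the members' changes was not tested.

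Group VII proteins are the oxygen-sensing factors, which plants degrade in air through an N-terminal cysteine and keep under low oxygen; all 5 members were tested, 2 were higher and 1 lower at discoloration, and none passed at initial maturity by edgeR. RAP2-3 FtPinG0007594200.01 (chromosome 6, 1308877 to 1310115) had the highest mean FPKM of all 148 members. It had 113, 43.3 and 43.7 CPM at green fruit, 184, 163 and 179 at discoloration and 263, 287 and 265 at initial maturity, with no overlap between stages. Its first change was log2 1.39 ± 0.36 (edgeR adjusted p = 0.0132), but 0.46 (edgeR adjusted p = 0.164) with library totals and 1.19 (edgeR adjusted p = 0.157) with the close pairs joined. The second was 0.63 ± 0.35 (edgeR adjusted p = 0.187). It did pass without green fruit library 1 (edgeR adjusted p = 0.00168), with only the 2 stages compared, and with the libraries that stood apart left out. RAP2-3 FtPinG0004340900.01 (chromosome 8, 21907368 to 21908318) had 146, 41.6 and 43 CPM at green fruit, 93.6, 108 and 111 at discoloration and 125, 138 and 128 at initial maturity. Green fruit library 1 was the highest of all 9 libraries and libraries 2 and 3 the lowest, and the gene passed in neither interval (log2 0.44 ± 0.43 and 0.32 ± 0.43, edgeR adjusted p = 0.449 and 0.582). Without green fruit library 1 it was called higher in both (edgeR adjusted p = 5.6e-05 and 0.0402), as it was with the libraries that stood apart left out.

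RAP2-3 FtPinG0000926400.01 (chromosome 4, 34083942 to 34084825) was much lower, with 1.43, 2.44 and 3.27 CPM at discoloration against 4.29, 4.75 and 4.36 at green fruit. Its fall of log2 -0.91 ± 0.29 (edgeR adjusted p = 0.0347) did not pass when green fruit library 2 or 3, discoloration library 1 or 2, or initial maturity library 1 or 3 was left out (edgeR adjusted p = 0.0512 to 0.095). RAP2-12 FtPinG0006722300.01 ranged only from 29.3 to 37.8 CPM over the 9 libraries and passed in neither interval. Its change at discoloration was 0.23 (edgeR adjusted p = 0.168) with TMM and -0.75 (edgeR adjusted p = 9.2e-04) with library totals. RAP2-2 FtPinG0002878800.01 had 109, 76.6 and 79.4 CPM at discoloration against 69.3, 47 and 45.3 at green fruit. Its change of log2 0.72 ± 0.22 (edgeR adjusted p = 0.0282) turned to -0.26 with library totals, and it did not pass without green fruit library 2 or 3 or discoloration library 1 or 3 (edgeR adjusted p = 0.0521 to 0.101).

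Group I, with RAP2-4 and ERF061 types, had 7 of 13 members tested. At discoloration 2 were higher and 1 lower; at initial maturity 0 were higher and 4 lower. ERF061 FtPinG0008126800.01 (chromosome 3, 12562982 to 12563914) had 7.48, 5.75 and 4.34 CPM at green fruit, 17.8, 21 and 19.1 at discoloration and 0.955, 0.253 and 1.29 at initial maturity. It was highest at discoloration, with no overlap between stages. Its rise of log2 1.72 ± 0.35 (edgeR adjusted p = 0.00443) did not pass with library totals (0.75, edgeR adjusted p = 0.0752) or the close pairs joined (0.0877), while its later fall of -4.53 ± 0.43 (edgeR adjusted p = 2.5e-04) held under every alternative. RAP2-4 FtPinG0009559900.01, whose Arabidopsis match acts in drought and light responses, had 86.8, 139.9 and 137 CPM, then 145, 136 and 142, then 85.9, 62.7 and 85.4. Its first change was 0.21 (edgeR adjusted p = 0.478) with TMM and -0.80 (edgeR adjusted p = 0.0238) with library totals. It fell by log2 0.85 ± 0.22 at initial maturity (edgeR adjusted p = 0.0171; 0.0503 without discoloration library 2 and 0.0549 without library 3).

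Group VIII includes the EAR-motif repressors ERF3, ERF4 and ERF9 types, and 13 of its 16 members were tested. At discoloration 4 were higher and 3 lower (30.8% and 23.1%, beside 19.5% and 19.9% of all genes tested). At initial maturity 3 were higher and 3 lower (23.1% each, beside 16% and 20.4%). ERF4 FtPinG0009275800.01 had 3.57, 4.57 and 3.69 CPM at discoloration, against 8.11, 12.2 and 13.3 at green fruit (log2 -1.51 ± 0.24, edgeR adjusted p = 0.00151), under every alternative. The ERF9 matches went both ways. ERF9 FtPinG0001427400.01 had 6.48, 4.49 and 4.25 CPM at discoloration, against 11.6, 19 and 21.6 at green fruit (log2 -1.78 ± 0.29, edgeR adjusted p = 0.00163). ERF9 FtPinG0003308600.01 had 72.9, 130.2 and 74 CPM at initial maturity, against 35.3, 29.8 and 30.5 at discoloration (log2 1.54 ± 0.23, edgeR adjusted p = 0.00138), and both calls held under every alternative. ERF9 FtPinG0007438800.01, the most abundant of the subgroup by mean FPKM, had 42.2, 67.7 and 48.8 CPM at initial maturity, against 25.6, 30.1 and 32.5 at discoloration (log2 0.85 ± 0.19, edgeR adjusted p = 0.00843). That call did not pass with library totals (0.48, edgeR adjusted p = 0.0767) or with the close pairs joined (0.99, edgeR adjusted p = 0.0796). ERF084 FtPinG0001838300.01 had 0.127, 0 and 0.258 CPM at initial maturity, against 1.53, 2.4 and 2.43 at discoloration (log2 -4.00 ± 0.80, edgeR adjusted p = 0.00504; 0.0643 with the close pairs joined).

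Group VI holds cytokinin response factors and ERF118 types. Of 10 members 6 were tested, with 1 higher and 1 lower at discoloration, and 1 higher and 2 lower at initial maturity. ERF118 FtPinG0003124000.01, the most abundant, lay between 39.4 and 61.6 CPM in all 9 libraries and passed in neither interval (log2 -0.11 and -0.09). ERF118 FtPinG0008739400.01 had 12.3, 13.1 and 11.1 CPM, then 8.88, 8.04 and 7.29, then 16.4, 19.6 and 15.5. It fell by log2 0.59 ± 0.15 (edgeR adjusted p = 0.0137; 0.0557 without green fruit library 2 and 0.0635 without discoloration library 3) and then rose by 1.09 ± 0.16 (edgeR adjusted p = 0.00114; 0.0513 with the close pairs joined). Among the 5 members not placed in a subgroup, 2 were tested; a match of rice ERF1, FtPinG0003760400.01, had 49.9, 53.8 and 50.8 CPM at initial maturity against 27.4, 16.4 and 15.7 at discoloration (log2 1.38 ± 0.22, edgeR adjusted p = 0.00192; 0.0608 with the close pairs joined).

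**Figure D5:**
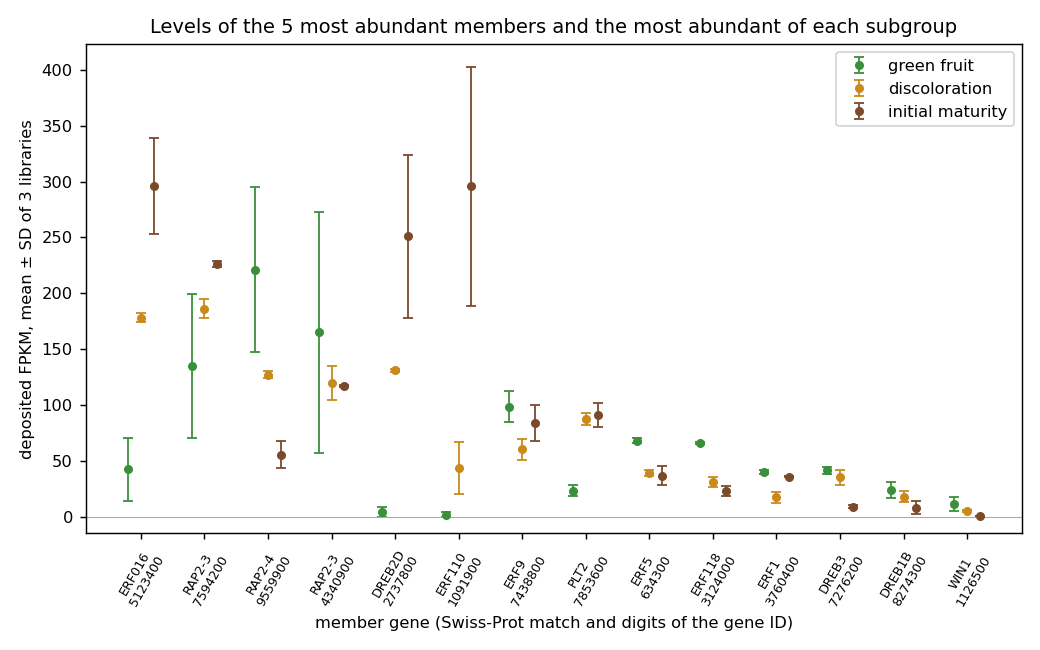
Deposited FPKM (y axis, mean ± SD of 3 libraries) at the 3 stages of the 5 members with the highest mean over all libraries and of the most abundant member of each subgroup (x axis). ERF016, DREB2D and ERF110 are highest at initial maturity, and RAP2-4 is highest at green fruit, on this scale of library totals and gene length.

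Per length, on the deposited FPKM scale, the family's leading genes changed over the series. The 5 highest means over all 9 libraries were those of RAP2-3 FtPinG0007594200.01 (182 FPKM), ERF016 FtPinG0005123400.01 (172), RAP2-4 FtPinG0009559900.01 (135), RAP2-3 FtPinG0004340900.01 (134) and DREB2D FtPinG0002737800.01 (129). At initial maturity, ERF110 FtPinG0001091900.01 and ERF016 each averaged 296 FPKM, DREB2D 251 and RAP2-3 FtPinG0007594200.01 226. At green fruit RAP2-4 FtPinG0009559900.01 averaged 221 FPKM, and ERF109 FtPinG0009641900.01 176. The summed FPKM of group X members was 219.6 ± 102, 125 ± 30.3 and 592 ± 134 over the stages in order of development (SD, n = 3 each). That of group VIII was 586 ± 175, 276 ± 12.9 and 335 ± 44.3, and that of group I 304 ± 92.5, 171 ± 5.06 and 64.3 ± 13.7.

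In 3 of the 18 clusters, chosen after their values were seen, neighbouring members gave different patterns of calls. On chromosome 1, ERF1B FtPinG0009372500.01 was called at discoloration and not at initial maturity, while ERF098 FtPinG0009372200.01 was called in both intervals. On chromosome 3, ERF1A FtPinG0003971800.01 rose at discoloration and ERF5 FtPinG0003972300.01 did not pass there (log2 -0.26, edgeR adjusted p = 0.223), while both fell at initial maturity. On chromosome 4, ERF109 FtPinG0009641900.01 fell at discoloration, and ERF109 FtPinG0008107400.01, within a span of 42123 bases on the other strand, had a change of -0.29 (edgeR adjusted p = 0.455). The differences between neighbours were not tested. The spans of 9 members overlap another member, in the RAP2-13 pair, ERF113 and ERF115 on chromosome 3, the ERF056 models and a CRF2 pair with identical ends; reads there may be split between models, and none of the genes given above with a test is among them. The kit named in the labels is not stated to keep strand, so for 5 members that overlap a model on the other strand the reads of the pair cannot be told apart.

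Genes around the family gave a mixed picture, described from the same fit and with lists matched by name. Whether the calls of single genes in these lists hold under the alternative runs was not examined. Of 16 genes for ethylene synthesis (ACC synthases and oxidases) 13 were tested, and 1 was higher and 2 lower at discoloration, then 2 higher and 4 lower at initial maturity. Of 44 genes for ethylene receptors and signalling 39 were tested, with 8 higher and 5 lower, then 8 higher and 8 lower. The most abundant of these per length, a match of EIN3-like 4 (FtPinG0008254600.01), a kin of the factors that switch on ERF genes, had 3.77, 0.49 and 0.332 CPM at green fruit, 47.9, 28.7 and 25.3 at discoloration and 193, 236 and 211 at initial maturity. It rose by log2 4.49 ± 0.80 and 2.65 ± 0.72 (edgeR adjusted p = 0.00245 and 0.0192). Of 24 low-oxygen response genes, the class that group VII factors switch on, 23 were tested; 8 were higher and 5 lower at discoloration, and 2 higher and 8 lower at initial maturity. Alcohol dehydrogenase 1 (FtPinG0009670800.01) had 686, 773 and 760.0 CPM at discoloration, against 167, 91.1 and 96 at green fruit (log2 2.65 ± 0.30, edgeR adjusted p = 2.5e-04). Of 12 AP2-domain genes whose names fall outside the rule 8 were tested, with 2 higher and 1 lower, then 0 higher and 3 lower. Among them APETALA 2 (FtPinG0002712500.01), a regulator of floral organs and seed size, had 25.6, 29.2 and 29.1 CPM at initial maturity, against 105, 84.7 and 80.7 at discoloration (log2 -1.69 ± 0.17, edgeR adjusted p = 3.2e-04).

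At discoloration against green fruit the authors' deposited table has 31 members higher and 13 lower, and all 44 were also called here, among 62 calls. At initial maturity against discoloration the authors' deposited table has 30 higher and 24 lower, of which 46 of 54 were called here, among 51 calls. At initial maturity against green fruit the authors' deposited table has 33 higher and 26 lower, and all 59 were called here, among 78 calls. These matches count genes called in both, and the directions were not compared in the count. The share of all gene models called in the deposited table was not counted, so the numbers are a description.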

How the data were processed

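RNA from whole seeds (TruSeq kit, HiSeq4000, per the labels) gave 9 libraries, 3 a stage; the replicates are 3 plants per the labels, but whether the close pair of libraries in each stage comes from separate plants cannot be told from the files, and p-values measure the spread between these libraries. Bowtie2 2.0.6 and TopHat2 2.0.12 are named in the submitters' processing notes; which genome build and counting tool were used is not stated in the labels. The deposited tables hold raw counts for 33931 genes, FPKM values by the authors, and the authors' comparisons with log2 ratios and adjusted p-values. Positions, lengths and Swiss-Prot matches come from the deposited gene descriptions. The deposited variant tables hold genotype calls; in each, 9 genotype columns match no sample here and were not used.

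Counts were filtered with filterByExpr (minimum count 10), which left 23631 genes and removed 10300. They were scaled by TMM and fitted over all 9 libraries with edgeR 4.0.16's quasi-likelihood test in R 4.3.3, with no replicate block and Benjamini-Hochberg adjustment (threshold 0.05). The common biological coefficient of variation was 0.289. Contrasts were each later stage against the earlier ones, and the second interval's log2 change minus the first's. SEs are the log2 fold change over the square root of F, so they restate the test. CPM values are TMM-scaled and compare a gene with itself; deposited FPKM compare genes. Folds against a stage with no counts use 3 counts over the stage; counting error only is covered. The fit was also run on simulated counts, drawn as independent libraries with the same spread for every gene. That run holds no close pairs, so it cannot show how the fit behaves with them.

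Alternatives were DESeq2 1.42.0 size factors and test, library totals, no filter, the replicate number as a block, each library left out, only the 2 stages compared, and limma 3.58.1 on log2(FPKM + 0.1). Joining each close pair and leaving out the libraries that stood apart were added after seeing the data. "Every alternative" means all of these. Changes that did not pass with all 9 libraries but passed in an alternative are named for some genes only. Members, subgroups and lists were chosen with earlier results of these data known, and some list patterns were trimmed later (homologs of ACC oxidase, leghemoglobin reductase and rice ERF1 in group IX were taken out), so counts over them are descriptions.

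Named genes are the ERF098, ERF110 and RAP2-3 matches, the 6 highest and 6 lowest called changes in each adjacent comparison, the 5 highest mean FPKM, the highest mean FPKM of each subgroup, and the 3 smallest adjusted p per direction for the difference between intervals. Context genes are those of highest mean FPKM in a list. ABI4, ERF112, ERF115, AIL1, AIL5, AIL7, ANT, TOE3, the WRI1 matches, RAP2-2, RAP2-12, ERF4, ERF5 FtPinG0003972300.01, ERF1B, ERF109 FtPinG0008107400.01 and ERF9 FtPinG0001427400.01 and FtPinG0003308600.01 were added after their values were seen.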

Additional observations from a re-analysis of the deposited data

Results flagged for a closer look

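The log2 change over the second interval differed from that over the first, by edgeR's contrast of the 2 intervals, in 34 members: it was above the first in 9 and below it in 25, beside 6.58% and 13.4% of all genes tested. With the close pairs of libraries joined these counts were 0 and 1, where 8 and 24 members passed an unadjusted p under 0.05 in edgeR. With the libraries that stood apart left out they were 21 and 51 (21% and 51% of the members tested, beside 25.4% and 35.2% of all genes), so the share above the first interval was then under that of all genes. With library totals the members' shares above and below were equal, 17.2% and 17.2%, beside 20.3% and 7.83% of all genes. The excess of members below the first interval over those above it thus depended on the scaling.

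In each direction the smallest adjusted p belonged to these genes. The largest turn among them was in ERF061 FtPinG0008126800.01, highest at discoloration, with a difference of -6.25 (edgeR adjusted p = 4.1e-04). DREB3 FtPinG0007276200.01 had -2.37 (edgeR adjusted p = 0.00138) and ERF1A FtPinG0003971800.01 -2.52 (edgeR adjusted p = 0.00195), both also highest at discoloration. RAP2-7 FtPinG0001439000.01 had 3.06 (edgeR adjusted p = 0.00211), ERF118 FtPinG0008739400.01 had 1.68 (edgeR adjusted p = 0.00388) and ERF109 FtPinG0009641900.01 had 4.98 (edgeR adjusted p = 0.0069), each lowest at discoloration.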

How the results depend on the processing

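Of the 39 and 23 members called higher and lower at discoloration against green fruit, 17 and 5 kept their call under every alternative, and of the 26 and 25 called at initial maturity against discoloration, 7 and 7 did. The close pairs joined gave 17 higher and 5 lower, then 7 and 7, 23 lower at initial maturity against green fruit, 0 and 1 for the difference between the intervals (8 and 24 at an unadjusted p under 0.05, edgeR), and 55 members in the F test over the stages, against 83. In that run 16.3% of the tested members were higher and 4.81% lower at discoloration, beside 6.99% and 4.72% of all genes. At initial maturity against discoloration the members' shares were 6.73% and 6.73%, beside 1.96% and 4.81%. Over the series 22.1% were lower, beside 20.7%, and for the difference between the intervals all genes had 0.0163% above and 0.57% below. Library totals gave 23 and 48 at discoloration and 17 above for the difference between the intervals, limma on FPKM 24, 48 and 19, and the DESeq2 test 15 for that difference. At discoloration library totals called 23.2% and 48.5% of the members, beside 7.74% and 68.3% of all genes. Limma on FPKM called 24.2% and 48.5% there, beside 7.96% and 67.2%. For the difference between the intervals, library totals put 17.2% of the members above and 17.2% below, beside 20.3% and 7.83% of all genes. Limma on FPKM gave 19.2% and 17.2%, beside 22.7% and 7.4%, and the DESeq2 test 15.2% and 27.3%, beside 11.3% and 15.3%. With the libraries that stood apart left out, 42 were higher at initial maturity against discoloration (42%, beside 32.6% of all genes). In that run 21 and 51 differed between the intervals (21% and 51%, beside 25.4% and 35.2%). Leaving out each library in turn gave 29 to 47 higher and 16 to 27 lower at discoloration, 14 to 36 and 17 to 30 at initial maturity against discoloration, 37 to 47 and 34 to 43 over the series, 4 to 16 and 10 to 42 for the difference between the intervals, and 77 to 92 in the F test. The counts of 14, 15 and 17 higher at initial maturity came without discoloration library 2, discoloration library 3 and initial maturity library 2. These are 13.7%, 14.7% and 16.7% of the members tested, beside 8.28%, 8.19% and 12.4% of all genes. With all 9 libraries the shares were 26.3% and 16%, so the share of all genes fell as well. At discoloration the members' higher share ran from 28.4% to 46.5%, beside 14.6% to 25.5% of all genes. Their lower share ran from 15.7% to 26.7%, beside 12.9% to 25.9%. Over the series the higher share ran from 36.3% to 46.5%, beside 23.5% to 33.5%, and the lower share from 34.3% to 42.2%, beside 28.6% to 35.4%. For the difference between the intervals 3.92% to 15.8% were above, beside 1.68% to 12.3%, and 9.8% to 41.6% below, beside 6.38% to 20.9%. For the F test the share of all genes is given only for the fit over all 9 libraries.

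At discoloration, these changes of genes given by name turned with library totals and with limma on FPKM: RAP2-4 FtPinG0009559900.01 (-0.80 and -0.74), RAP2-4 FtPinG0001757700.01 (-0.86 and -0.85), DREB3 FtPinG0007276200.01 (-0.23 and -0.25), ERF5 FtPinG0000634300.01 (-0.80 and -0.80), ERF9 FtPinG0007438800.01 (-0.71 and -0.71), RAP2-2 FtPinG0002878800.01 (-0.26 and -0.26) and RAP2-12 FtPinG0006722300.01 (-0.75 and -0.75). With the libraries that stood apart left out, WIN1 FtPinG0001126500.01 (0.47) and WRI1 FtPinG0009489700.01 (0.34) turned at discoloration and ERF118 FtPinG0003124000.01 (0.19) at initial maturity. The library-totals shift of all genes accompanies the first set; for the others the cause was not tested. With the replicate number as a block, 37 and 22, then 25 and 24 members were called. With that block the members' shares were 37.4% and 22.2%, then 25.3% and 24.2%, beside 18.3% and 17.6%, then 14.4% and 18.8% of all genes. Of the named calls, DREB2A FtPinG0000874400.01 and TOE3 FtPinG0007614100.01 at discoloration and WIN1 FtPinG0008861700.01 and ERF109 FtPinG0008107400.01 at initial maturity did not pass with it (edgeR adjusted p = 0.0608, 0.0686, 0.0841 and 0.0575). Same-numbered libraries deviated with correlations of -0.138 to 0.129, not all over 0.1, so the numbers were not taken as pairs. The 49 members that did not pass the filter were not tested.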

Other observations

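The deposited variant tables list 128 SNP and 31 InDel sites within 60 of the members. Calls differed among the 9 libraries at 68 of these sites, and at 43 of the 68 only 1 library had a call other than homozygous reference. These single calls were spread over the libraries, with 4 to 6 in each. The coverage behind the calls was not analysed here.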
